A study of Mus musculus with 8 samples.

Results

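The BTG/TOB family was followed through 5 mouse genes, Btg1, Btg2, Btg3, Tob1 and Tob2, in liver RNA from Btg2-knockout and wild-type mice. Its members were chosen by name: every non-control probe whose accession maps to 1 of these 5 symbols was taken, which gave 6 of the 55681 probes, or 5 of the 20284 named genes, on the array. Btg1 had 2 probes and the other genes had 1 each, and all 6 passed the filter on dim probes. Btg2 itself is the gene that the knockout removes, and the labels call it TIS21.

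Proteins of this family share an amino-terminal domain that binds the deadenylase subunits of the CCR4-NOT complex, which shortens the poly(A) tails of mRNAs and so starts their decay. Tob1 and Tob2 also bind the poly(A)-binding protein through motifs in their longer carboxy-terminal parts, while Btg1 and Btg2 bind the arginine methyltransferase Prmt1. The genes are called antiproliferative because raising their levels slows cell division in culture, and Btg2 is an immediate-early gene and a target of p53. Fetal liver is a site of blood formation, whereas adult liver is mostly made up of hepatocytes.

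There were 4 RNA samples, each hybridised to 2 arrays. The KO Ad and WT Ad samples were livers of TIS21-knockout and TIS21-wild-type males of 10 weeks after a fast of 20 h. The KO Fetal and WT Fetal samples were pools of liver RNA from more than 3 fetuses of 1 litter at embryonic day 13.5. These pools were of mixed sex and not stated to be fasted. Age, sex and fasting therefore differ together between adult and fetal samples and cannot be told apart. Below, age stands for that whole contrast. The 2 arrays of a group are technical duplicates per the series' design text, so every p-value below measures array error only and compares RNA samples, not genotypes or ages. The number of adult animals per sample and the deleted portion of Btg2 are not stated in the labels.

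A level is given as the log2 signal of a probe relative to the 75th percentile of its array, and a difference is the log2 difference between group means with its standard error (SE). Differences were tested with limma, adjusted by the Benjamini-Hochberg method over 28819 probes, and called at an adjusted p under 0.05 with at least a 2-fold difference. Levels of different probes are not set against each other. The 75th percentile of the signal was 132 to 171 on adult arrays and 278 to 334 on fetal arrays, and 39.6 to 43.6% of probes were well above background on adult arrays, against 50.1 to 62.4% on fetal arrays. No spot was saturated, and duplicates correlated at r of 0.99 to 0.996 over the tested probes. The groups lay in different columns of 1 slide, so column and group cannot be told apart, while the first array of each group lay in row 1 and the second in row 2. Defining hepatocyte genes such as Alb and Ttr were well above background on all 8 arrays.

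The promoters of the 4 genes called between adult and fetal wild-type liver are shown first, as the 200 bases before each RefSeq start in build GRCm38.p6, read 5′ to 3′ on the strand of the gene. Capitals mark 4 short motifs found on either strand: the cAMP response element TGACGTCA, the CCAAT box, the GC box GGGCGG and the TATA box TATAAA. The windows are Btg2 at chr1:134079156-134079355 on the minus strand, Btg3 at chr16:78377182-78377381 and chr16:78376811-78377010 on the minus strand for its 2 starts, Tob1 at chr11:94211254-94211453 on the plus strand and Tob2 at chr15:81858327-81858526 on the minus strand.
Btg2: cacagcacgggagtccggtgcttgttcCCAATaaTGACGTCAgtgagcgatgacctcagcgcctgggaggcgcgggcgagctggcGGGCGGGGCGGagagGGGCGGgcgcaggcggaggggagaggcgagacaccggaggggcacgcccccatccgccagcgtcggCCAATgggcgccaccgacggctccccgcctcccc
Btg3, first start: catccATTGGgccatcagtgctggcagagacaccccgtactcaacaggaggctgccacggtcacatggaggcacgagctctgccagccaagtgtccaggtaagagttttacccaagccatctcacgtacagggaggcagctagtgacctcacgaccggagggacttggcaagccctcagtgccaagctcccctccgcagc
Btg3, second start: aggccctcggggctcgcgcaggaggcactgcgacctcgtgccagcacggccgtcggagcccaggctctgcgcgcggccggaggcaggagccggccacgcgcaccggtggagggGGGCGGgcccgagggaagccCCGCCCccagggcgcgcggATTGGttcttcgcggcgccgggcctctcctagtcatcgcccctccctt
Tob1: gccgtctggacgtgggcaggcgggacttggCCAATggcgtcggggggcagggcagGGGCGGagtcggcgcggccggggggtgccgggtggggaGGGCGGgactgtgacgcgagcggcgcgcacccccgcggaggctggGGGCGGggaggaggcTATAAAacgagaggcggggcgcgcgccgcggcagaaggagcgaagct
Tob2: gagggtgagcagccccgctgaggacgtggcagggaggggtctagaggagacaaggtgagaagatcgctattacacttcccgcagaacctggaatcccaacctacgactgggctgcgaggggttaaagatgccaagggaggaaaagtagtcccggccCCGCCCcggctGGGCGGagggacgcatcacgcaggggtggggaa
The Btg2 window held the only cAMP response element among the family's windows, beginning 166 bases before the start and 2 bases after a CCAAT box. That 8-base motif was in 1.47% of 32851 windows of the same length. The Btg2 window also held 3 GC boxes, of which the first and second overlap by 1 base. Tob1 held 1 CCAAT box, 3 GC boxes and 1 TATA box, Tob2 held 2 GC boxes, and the second start of Btg3 held 1 CCAAT box and 2 GC boxes. The window of Btg1, on chromosome 10 and not printed, held 1 CCAAT box, 2 GC boxes and 1 TATA box. CCAAT boxes occurred in 29.3%, GC boxes in 31% and TATA boxes in 9.96% of all windows. These matches describe letters only and were not tested as binding sites.

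Btg2, on chromosome 1, was near or below background in both knockout samples. Its processed signal was 6.26 and 8.02 on the KO Ad arrays, against 149 and 158 on the WT Ad arrays. In the fetal pools it was 4.54 and 5.14 on the KO Fetal arrays, against 2070 and 2080 on the WT Fetal arrays. All 4 knockout arrays lay under the lowest wild-type array, and none of them was well above background. Relative to the 75th percentile, Btg2 stood at -4.77 and -4.40 in KO Ad, against 0.16 and 0.26 in WT Ad, and at -5.94 and -5.76 in KO Fetal, against 2.63 and 2.68 in WT Fetal. The fitted difference was -4.80 ± 0.16 in adults (adjusted p = 1.5e-06, limma), and Btg2 was at least 7.62-fold lower in KO Ad than in WT Ad. The fitted difference was -8.50 ± 0.16 in fetal pools (adjusted p = 3.5e-06, limma), and Btg2 was at least 99.7-fold lower in KO Fetal than in WT Fetal. With normexp background correction the fitted differences were -1.78 in adults and -4.62 in fetal pools, smaller than these bounds but still called. That correction adds an offset of 50 to every signal, which narrows the log2 differences of dim probes. Each bound sets the bright group against the lowest signal that counted as well above background in the dim group. The knockout labels and the Btg2 probe therefore point the same way on all 8 arrays, although the position of the probe relative to the deletion is not known here.

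**Figure D1:**
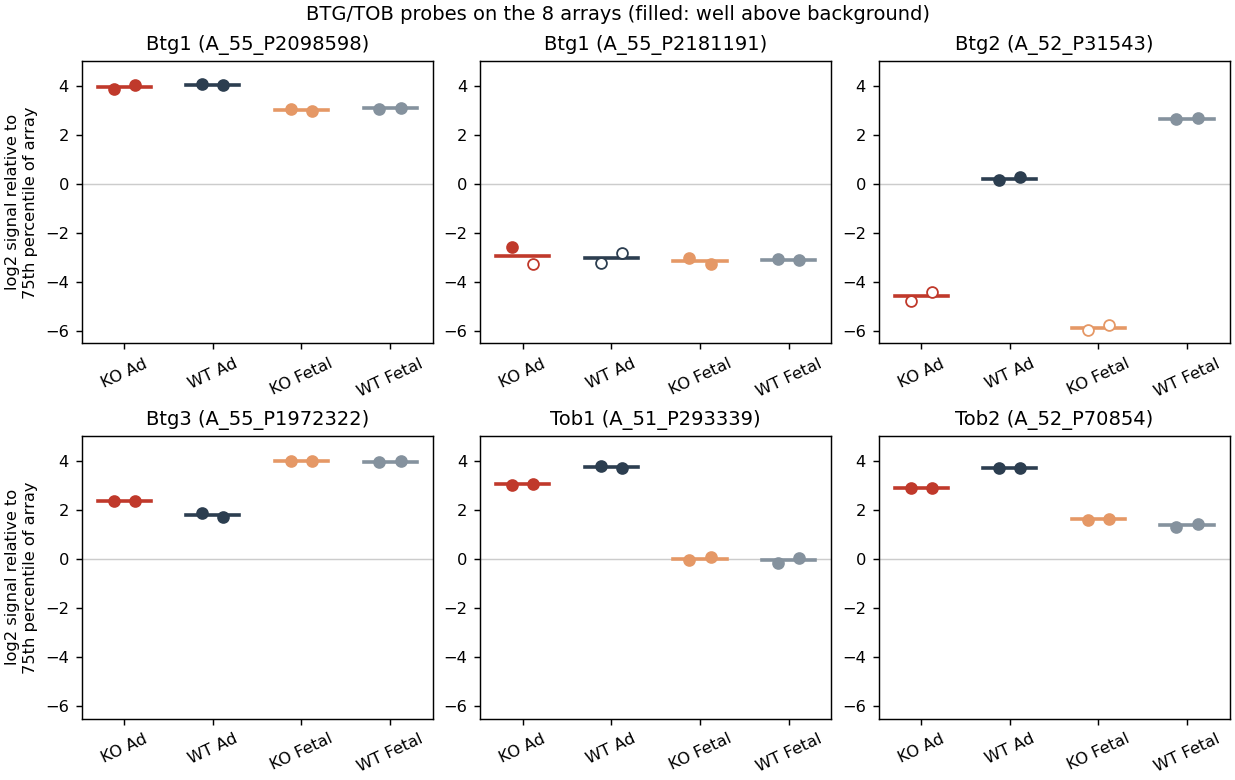
Level of each BTG/TOB probe on every array, as log2 signal relative to the array's 75th percentile, for KO Ad, WT Ad, KO Fetal and WT Fetal. Points are arrays, bars are means of 2, and open points were not well above background: Btg2 was open on all 4 knockout arrays, Btg3 was higher on fetal arrays, and Tob1 and Tob2 were higher on adult arrays.

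The comparison of knockout with wild-type adult liver asks how the rest of the family stands when Btg2 is missing. Apart from Btg2, none of the other 4 genes was called: 0 rose and 1, Btg2, fell among 5, beside 7.37% of 14582 named genes called in this comparison (4.92% higher and 2.45% lower). Btg3, Tob1 and Tob2 differed by less than 2-fold, each with an adjusted p under 0.05. The share of all named genes under that p alone is not given here, and p measures array error only. Btg3 was at the higher level in KO Ad, whereas Tob1 and Tob2 were at the lower level there.

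Tob2, on chromosome 15, a close relative of Tob1, had a level of 2.90 and 2.88 on the KO Ad arrays, against 3.70 and 3.71 on the WT Ad arrays. Both knockout arrays lay under both wild-type arrays. The difference was -0.82 ± 0.04, or 1.76-fold lower (adjusted p = 4.6e-06, limma), with -0.81 in row 1 and -0.83 in row 2 of the slide. In absolute size this was at the 87.2 percentile of all tested probes, while the differences of Tob1 and Btg3, given next, were at 82.9 and 77.1.

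Tob1, on chromosome 11, known as a negative regulator of T-cell activation and of bone morphogenetic protein signalling, had a level of 3.03 and 3.04 on the KO Ad arrays, against 3.78 and 3.70 on the WT Ad arrays. The groups did not overlap, and the difference was -0.71 ± 0.07, or 1.63-fold lower (adjusted p = 2e-04, limma). Within slide rows it was -0.75 and -0.66.

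Btg3, on chromosome 16, whose protein binds the transcription factor E2f1, had a level of 2.37 and 2.38 on the KO Ad arrays, against 1.87 and 1.70 on the WT Ad arrays. Both KO Ad arrays lay above both WT Ad arrays. The difference was 0.59 ± 0.05, or 1.51-fold higher (adjusted p = 9.9e-05, limma), with 0.51 in row 1 and 0.68 in row 2. All 3 differences kept their direction and stayed under 2-fold in each of the 19 alternative settings described in the closing section. Under scaling by the array median, with an SE of 0.27, the adjusted p was 0.22 for Tob1, 0.11 for Tob2 and 0.03 for Btg3.

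Btg1, on chromosome 10, the closest relative of Btg2 in the family, showed no difference past the threshold. Its brighter probe (A_55_P2098598) had a level of 3.87 and 4.03 on the KO Ad arrays, against 4.08 and 4.01 on the WT Ad arrays, so the groups overlapped. The difference was -0.09 ± 0.06 (adjusted p = 0.21, limma), and its sign turned under 4 other scalings. The dimmer Btg1 probe (A_55_P2181191) rose clear of background on 1 adult array of 4, KO Ad 1, so it gives little more than a bound there. Its processed signal was 28.4 and 17.9 on the KO Ad arrays, against 14.4 and 18.6 on the WT Ad arrays.

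Markers of other cells moved in the same comparison. Of 11 measured macrophage and Kupffer cell markers, 11 were called higher in KO Ad, with a median difference of 2.95, and their summed level relative to the 75th percentile was 363 to 371 in KO Ad, against 62.3 to 65.8 in WT Ad. Of 6 stellate and fibroblast markers, 3 were called higher, with a summed level of 7 to 7.05 in KO Ad, against 2.84 to 2.85 in WT Ad. None of 7 hepatocyte markers was called by limma, though 5 of 7 had an unadjusted p under 0.05, and their summed level was 4740 to 4940 in KO Ad, against 5940 to 6010 in WT Ad. Of 4 measured intestinal markers, Vil1 and Reg1, both dim in WT Ad, were called higher in KO Ad, and Fabp2 and Lgals4 lower. Reg1 passed the filter on dim probes only through KO Ad, the group where it was high, so its call is no independent evidence. The intestinal sum was 95.5 to 96.7 in KO Ad, against 247 to 250 in WT Ad. No macrophage marker was dim in KO Ad, and Timd4 was not well above background in WT Ad. The part of these markers in the Tob1, Tob2 and Btg3 values was not tested, and in whole liver fewer cells of a type and less RNA per cell cannot be told apart.

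In the fetal pools Btg2 was the only member called, 1 lower of 5, where 1.83% of named genes were called (0.473% higher and 1.36% lower). Tob2 had a level of 1.60 and 1.62 on the KO Fetal arrays, against 1.32 and 1.41 on the WT Fetal arrays. The groups did not overlap, and the difference was 0.25 ± 0.04, or 1.19-fold (adjusted p = 0.0061, limma), which is under 2-fold and of the opposite sign to the adult one. Under scaling by the array median it was 0.29 with an adjusted p of 1. Tob1 had a level of -0.05 and 0.07 on the KO Fetal arrays, against -0.16 and 0.04 on the WT Fetal arrays, and these groups overlapped. Its difference was 0.07 ± 0.07 (adjusted p = 0.59, limma).

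Btg3 had a fetal level of 3.99 and 4 in KO Fetal, against 3.94 and 3.98 in WT Fetal, and its difference of 0.04 ± 0.05 did not pass the threshold (adjusted p = 0.7, limma). Its sign turned in 4 of 19 settings. The brighter Btg1 probe had a level of 3.03 and 2.97 in KO Fetal, against 3.05 and 3.09 in WT Fetal, a difference of -0.07 ± 0.06 (adjusted p = 0.44, limma). The dimmer Btg1 probe, which was well above background on all 4 fetal arrays, gave -0.05 ± 0.27 (adjusted p = 0.93, limma). Of 4 heart markers, Myh6 and Myl7 were called higher in KO Fetal, where the summed level was 173 on both arrays, against 75.1 to 75.8 in WT Fetal. The call of Myh6 was lost when any 1 of the 4 fetal arrays was left out. Of 7 hepatocyte markers, 0 were called by limma between KO Fetal and WT Fetal, though 4 of 7 had an unadjusted p under 0.05. Of 10 erythroid markers, 1 was called higher in KO Fetal: Hbb-bh1, an embryonic globin, by 1.36 ± 0.32 (adjusted p = 0.031, limma). That call was lost under 10 other settings, among them quantile normalization, the deposited value table and leaving out any 1 fetal array. All 10 erythroid differences were above 0 (median 0.25). The erythroid sum was 3490 on both KO Fetal arrays, against 2660 to 2900 in WT Fetal. The part of the heart and erythroid markers in the fetal values was not tested.

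**Figure D2:**
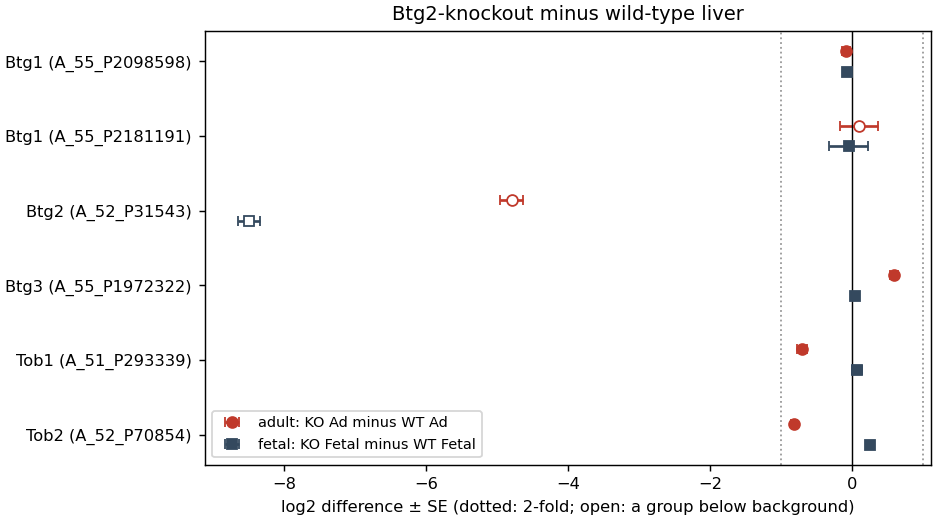
Difference between knockout and wild type for each BTG/TOB probe, as log2 difference ± SE (limma, 2 arrays a group), in adult liver (circles) and fetal pools (squares). Dotted lines mark 2-fold and open symbols a group with no array well above background: Btg2 alone lies past 2-fold, while Btg3, Tob1 and Tob2 lie between the dotted lines, farther from 0 in adults than in fetal pools.

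Whether the knockout difference itself differed between ages was tested with the interaction term, the adult difference minus the fetal one. It was called for 2 of the 5 genes, 1 higher and 1 lower, beside 9.55% of named genes (5.9% higher and 3.65% lower). For Tob2 the term was -1.07 ± 0.05 (adjusted p = 1.3e-05, limma), with -1.10 in row 1 and -1.04 in row 2. It fell short of 2-fold, between -0.92 and -0.86, under 5 of 19 settings, namely 3 other scalings, normexp background correction and the deposited value table. Tob1 gave -0.77 ± 0.10 (adjusted p = 8.8e-04, limma) and Btg3 gave 0.56 ± 0.08 (adjusted p = 9.3e-04, limma), both under 2-fold. Under array medians the adjusted p was 0.12 for Tob2, 0.4 for Tob1 and 0.3 for Btg3. Btg1 gave -0.02 ± 0.08 (adjusted p = 0.85, limma). The term of Btg2, 3.71 ± 0.23 (adjusted p = 3.1e-05, limma), compares groups that were both at background in the knockout, so it repeats the difference between WT Ad and WT Fetal and the difference between background levels.

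The comparison of adult with fetal wild-type liver showed the largest differences among members other than Btg2. Of the 5 genes, 2 rose in adult liver and 2 fell, while 54.9% of named genes were called in this comparison (27.4% higher and 27.6% lower), so the members' share of calls can be read only against that background. Tob1 rose by the larger amount: its level was 3.78 and 3.70 in WT Ad, against -0.16 and 0.04 in WT Fetal. The difference was 3.80 ± 0.07, or 13.9-fold (adjusted p = 3.0e-09, limma), at the 91.9 percentile of all tested probes in absolute size. In processed signal, Tob1 had 1830 and 1720 in WT Ad, against 299 and 333 in WT Fetal.

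Tob2 rose too, with a level of 3.70 and 3.71 in WT Ad, against 1.32 and 1.41 in WT Fetal. The difference was 2.34 ± 0.04, or 5.08-fold (adjusted p = 1.0e-09, limma). Btg3 fell in adult liver, with 1.87 and 1.70 in WT Ad, against 3.94 and 3.98 in WT Fetal. The difference was -2.18 ± 0.05, or 4.52-fold lower (adjusted p = 1.1e-08, limma). Its processed signal was 486 and 429 in WT Ad, against 5120 and 5110 in WT Fetal.

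Btg2 fell as well, to 0.16 and 0.26 in WT Ad, against 2.63 and 2.68 in WT Fetal. The difference was -2.45 ± 0.16, or 5.45-fold lower (adjusted p = 3.8e-06, limma). Btg1 was higher in WT Ad, at 4.08 and 4.01, against 3.05 and 3.09 in WT Fetal, by 0.97 ± 0.06 or 1.96-fold (adjusted p = 1.5e-06, limma). That is just short of 2-fold, and without the second WT Ad array it was 1.01 and passed, whereas under array medians it was 0.34 with an adjusted p of 0.24. The dimmer Btg1 probe gave 0.07 ± 0.27 (adjusted p = 0.83, limma). It was dim on both WT Ad arrays, so the probes of Btg1 did not give the same value.

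The scaling matters for differences this wide across the transcriptome, because the median over all tested probes moved with it: 0.14 as reported, -0.15 under quantile normalization, -0.29 under the percentile of detected probes and -0.49 under array medians. Relative to that median, over 5 scalings, the WT Ad minus WT Fetal difference was 3.66 to 3.71 for Tob1, 2.17 to 2.21 for Tob2, -2.38 to -2.32 for Btg3 and -2.59 to -2.44 for Btg2. For Btg1 it was 0.68 to 0.83. In the adult knockout comparison the same relative values were -0.58 to -0.54 for Tob1, -0.70 to -0.65 for Tob2, 0.62 to 0.71 for Btg3 and 0.03 to 0.07 for Btg1, where the median of all tested probes was -0.12 as reported.

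Knockout livers gave the same order of age differences. Of the 4 genes measurable in knockout samples, 2 rose and 1 fell in adult liver, beside 53.3% of named genes called (25.8% higher and 27.5% lower). Tob1 had 3.03 and 3.04 in KO Ad, against -0.05 and 0.07 in KO Fetal, a difference of 3.03 ± 0.07 or 8.15-fold (adjusted p = 1.1e-08, limma). Tob2 differed by 1.27 ± 0.04, or 2.42-fold (adjusted p = 3e-08, limma), and by 0.80, under 2-fold, with array medians. Btg3 differed by -1.62 ± 0.05, or 3.07-fold lower in KO Ad (adjusted p = 6.1e-08, limma). The brighter Btg1 probe differed by 0.95 ± 0.06, or 1.93-fold (adjusted p = 1.8e-06, limma), by 1.03, past 2-fold, without the first KO Ad array, and by 0.47 with an adjusted p of 0.1 under array medians. Btg2 was below background in both knockout samples, so no fold is given. The 4 comparisons share samples in pairs, so their values are not independent: WT Ad enters both the adult knockout comparison and the wild-type age comparison.

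**Figure D3:**
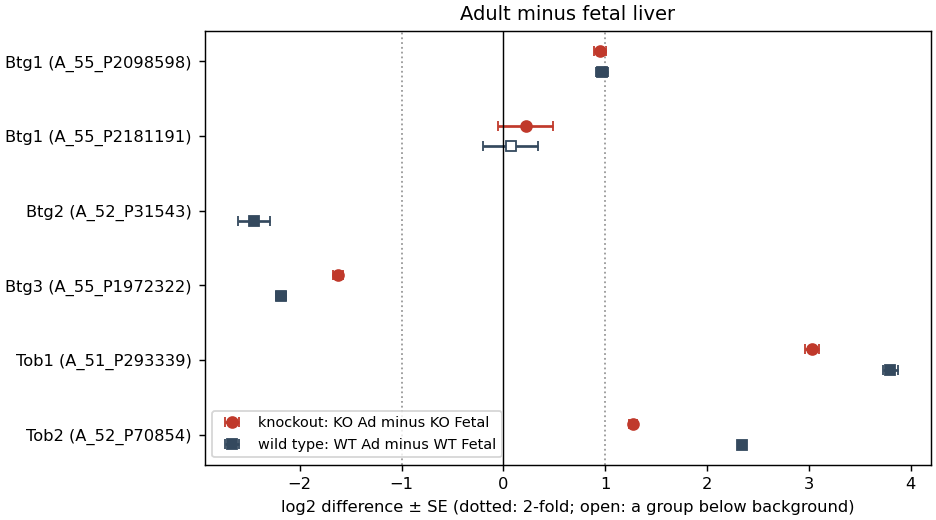
Adult minus fetal difference for each BTG/TOB probe, as log2 difference ± SE (limma, 2 arrays a group), in knockout (circles) and wild-type liver (squares). Tob1 and Tob2 lie to the right of the 2-fold line and Btg3 to the left in both genotypes, the brighter Btg1 probe lies just inside 2-fold and the dimmer one near 0, and Btg2 is shown for wild type only because it was below background in both knockout samples.

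The cells of the liver differed widely with age. All 10 erythroid markers were called lower in adult liver in both genotypes, with summed levels of 541 to 545 in KO Ad, 452 to 455 in WT Ad, 3490 in KO Fetal and 2660 to 2900 in WT Fetal. In adults, Gata1, Hbb-bh1 and Hba-x were among those not well above background in either genotype. Of 7 hepatocyte markers, 7 were called higher in WT Ad than in WT Fetal and 6 in KO Ad than in KO Fetal. The part of this shift in cell makeup in the levels of Tob1, Tob2, Btg2 and Btg3 was not tested.

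The order of group levels differed by gene. For Tob1 and Tob2 it was WT Ad, KO Ad and then the fetal groups, and for Tob1 the KO Fetal and WT Fetal arrays overlapped. For Btg3 it was the fetal groups, whose difference did not pass the threshold, then KO Ad and then WT Ad. For Btg1 both adult groups, which overlapped, lay above both fetal groups. For Btg2 it was WT Fetal, then WT Ad, with both knockout groups below background.

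Genes were also ranked by how closely their 4 group means, each centred on its own mean, followed those of a member among all tested genes. The likeness is the root mean square difference in log2 units over 4 groups. Nearest to Btg1 were Tmem115, a Golgi protein, at 0.012, Aftph at 0.02 and Ganab, a glucosidase subunit of the endoplasmic reticulum, at 0.022. Nearest to Btg3 were Etaa1, a replication stress factor, at 0.048, the transcription factor Sox6 at 0.051 and Purg at 0.052. Nearest to Tob1 were Cd4, the co-receptor of helper T cells, at 0.038, Pcsk4 at 0.057 and Pcx, which encodes pyruvate carboxylase, at 0.064. Nearest to Tob2 were Rsad1 at 0.041, Fnbp1 at 0.046 and Cald1, which encodes caldesmon, at 0.053. No gene came close to Btg2: its nearest, Alx1, was at 2.107, followed by Nepn at 2.109 and Agr2 at 2.187, each well above background on only 2 arrays. The Btg2 profile itself holds 2 knockout groups at background, so these likenesses are set partly against background values. With 4 groups such likeness describes a profile and carries no test.

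Under the reported scaling, no gene of the mRNA decay machinery that these proteins act through was called between genotypes. None of 11 CCR4-NOT subunits was called by limma in adults (median -0.03, 5 with an unadjusted p under 0.05) or in fetal pools (median -0.08, 4 with an unadjusted p under 0.05), where the median of all named genes was -0.10 and 0.02. The widest fitted value in both was that of Cnot7, a catalytic deadenylase that BTG and TOB proteins bind, at -0.47 ± 0.18 in adults (adjusted p = 0.067, limma) and -0.33 ± 0.18 in fetal pools (adjusted p = 0.26, limma). Cnot7 was well above background on 1 of 2 arrays in each adult group, so its adult value is uncertain. Cnot6, the other kind of deadenylase subunit, differed by -0.36 ± 0.04 in adults (adjusted p = 3.0e-04, limma), under 2-fold. None of 10 poly(A) tail factors was called by limma either, with medians of -0.01 in adults and 0.05 in fetal pools, and 6 and 5 of them with an unadjusted p under 0.05. Their widest adult value was that of Paip2b, an inhibitor of poly(A)-binding protein, at 0.42 ± 0.04 (adjusted p = 1.9e-04, limma), followed by Pabpc4 at -0.38 ± 0.04.

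None of 17 decapping and 5′ to 3′ decay genes was called by limma in either comparison, with medians of -0.22 in adults and 0 in fetal pools and with 11 and 7 at an unadjusted p under 0.05. In adults the decapping enhancer Edc3 differed by 0.87 ± 0.15 and Lsm7, a subunit of the ring that binds shortened tails, by -0.72 ± 0.04, both under 2-fold. Edc3 passed 2-fold under 3 other settings, at 1.06 with array medians, 1.01 with the percentile of detected probes and 1.12 without the second WT Ad array. Dcp2, the decapping enzyme, which was dim on all 4 adult arrays, was called at -1.06 without the first KO Ad array. None of 18 proteins that recruit the complex to mRNAs was called by limma in adults (median -0.22, 11 with an unadjusted p under 0.05) or in fetal pools (median 0.08, 5 with an unadjusted p under 0.05). Samd4b, an RNA-binding protein, differed by -0.66 ± 0.07 in adults (adjusted p = 2.5e-04, limma), under 2-fold. Nanos1 had the widest fetal value among those above background, 0.71 ± 0.21 (adjusted p = 0.063, limma).

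With age the same lists moved more, beside 54.9% of named genes called in wild type and a median of 0 over all named genes. In wild type, 0 of 11 CCR4-NOT subunits rose and 3 fell (median -0.54): Cnot9, a subunit that contacts mRNA-binding adaptors, at -1.88 ± 0.14, Cnot11 at -1.07 ± 0.05 and Cnot3, which was not well above background in WT Ad and was at least 1.11-fold lower. The call of Cnot3 was lost without 1 of 3 single arrays (WT Ad 1, WT Fetal 1 or WT Fetal 2), and all 3 calls were lost with normexp correction, as was that of Cnot9 in knockout. With that correction the wild-type difference of Cnot3 changed sign, to 0.37 (adjusted p = 7.2e-04, limma). The median over all tested probes was 0.42 there. In knockout livers 2 fell (median -0.42), Cnot6 at -1.33 ± 0.04 and Cnot9 at -1.56 ± 0.14. Of 10 poly(A) tail factors, 3 fell in wild type (median -0.50), namely Pabpc4 at -2.55 ± 0.04, Pabpc1, the main cytoplasmic poly(A)-binding protein, at -1.65 ± 0.03, and Pabpn1 at -1.18 ± 0.03. The 1 that rose was Paip1, by 1.17 ± 0.07, a call lost under 3 other settings. Pabpc4, Pabpc1 and Pabpn1 also fell in knockout livers, at -3.05, -1.57 and -1.23 (median of the list -0.65).

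Of 17 decapping and decay genes, 0 rose and 9 fell in KO Ad (median -1.06), and 1 rose and 9 fell in WT Ad (median -1.09). Subunits of the Lsm ring led in both, with Lsm3 at -3.14 ± 0.03 in knockout and -2.33 ± 0.03 in wild type, and Lsm5 at -2.54 ± 0.04 in knockout and -2.32 ± 0.04 in wild type. The gene that rose in wild type was Lsm14a, by 1.16 ± 0.13, a call lost under 6 other settings. Among 18 recruiting proteins, 3 rose and 4 fell in knockout (median -0.22), and 3 rose and 1 fell in wild type (median 0.35). Zfp36, which encodes tristetraprolin, was at least 7.83-fold higher in KO Ad than in KO Fetal and at least 12.1-fold higher in WT Ad than in WT Fetal. Cpeb1, a cytoplasmic polyadenylation factor, was at least 5.27-fold higher in KO Ad and at least 10.9-fold higher in WT Ad, and Cpeb2 differed by 3.56 ± 0.23 in knockout and 3.83 ± 0.23 in wild type, with 1 of 2 fetal arrays well above background in each genotype. Nanos1 was at least 3.32-fold lower in KO Ad and at least 1.73-fold lower in WT Ad. In knockout livers Pum2 differed by -1.27 and Cpeb4 by -1.49, and Samd4 was called lower without a usable bound. The calls of Nanos1, Cpeb4 and Samd4, and those of Edc3 and Dcp2 among the decay genes of wild type, were lost with normexp correction. With it Samd4 changed sign in knockout, to 0.10, and Dcp2 in wild type, to 0.04.

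**Figure D4:**
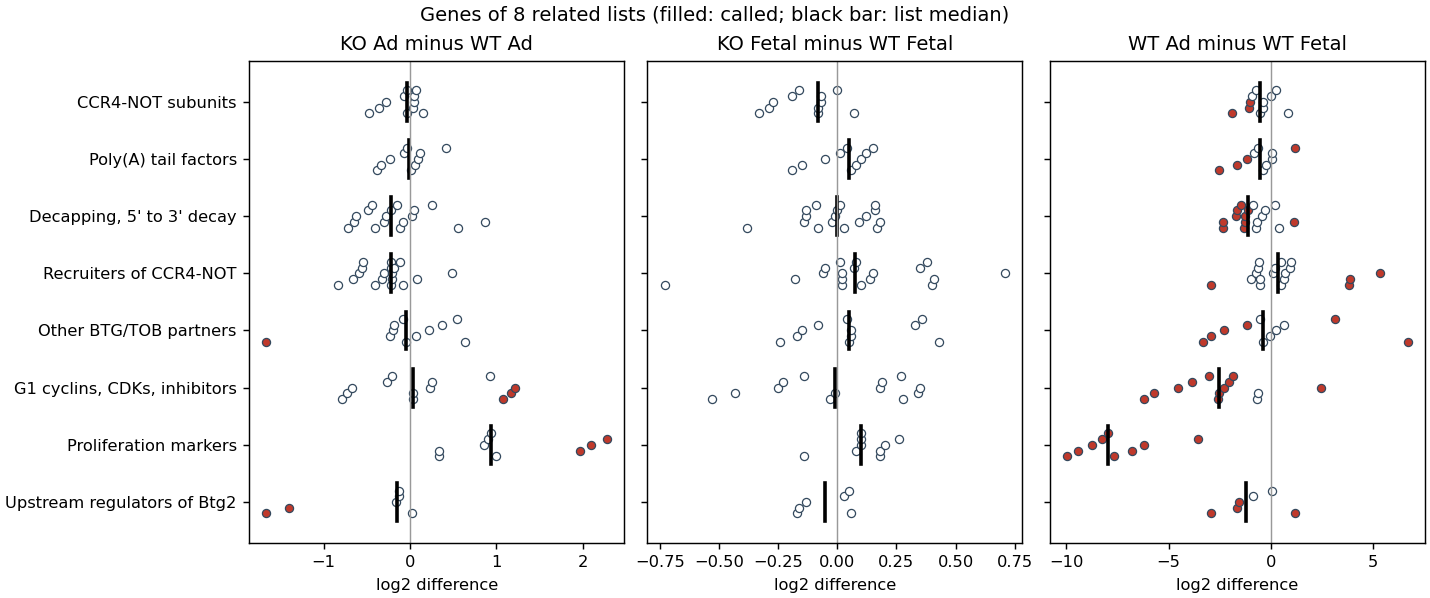
Log2 difference of every measured gene in 8 lists related to BTG/TOB function, for KO Ad minus WT Ad, KO Fetal minus WT Fetal and WT Ad minus WT Fetal, with a separate scale on each horizontal axis. Filled points were called (adjusted p under 0.05 and at least 2-fold, limma) and black bars are list medians: no point is filled in the fetal knockout panel, and all 9 proliferation markers are filled on the lower side in the age panel.

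Other reported partners of these proteins were tested as 11 of 14 listed genes. In KO Ad 0 rose and 1 fell (median -0.05): Esr1, the estrogen receptor alpha, at -1.66 ± 0.22 (adjusted p = 7.5e-04, limma), a call lost with normexp correction. None was called by limma in fetal pools (median 0.05, 3 with an unadjusted p under 0.05). Prmt1, the partner of Btg1 and Btg2, differed by -0.05 ± 0.03 in adults (adjusted p = 0.29, limma) and by 0.06 ± 0.03 in fetal pools (adjusted p = 0.25, limma). E2f1, the partner of Btg3, differed by 0.54 ± 0.06 in adults (adjusted p = 2.1e-04, limma), under 2-fold. With age, 2 rose and 4 fell in knockout (median -0.35), and 2 rose and 4 fell in wild type (median -0.40). That is 54.5% of the partners in each genotype, near the 53.3% and 54.9% called among all named genes. E2f1 differed by -3.09 and Prmt1 by -3.04 in KO Ad, and E2f1 by -3.30 and Prmt1 by -2.92 in WT Ad. Smad9, a transducer of bone morphogenetic protein signals, rose by 3.44 ± 0.23 in KO Ad and by 3.16 ± 0.23 in WT Ad, and Esr1 was at least 5.97-fold higher in KO Ad and at least 26.1-fold higher in WT Ad than in the fetal pool of the same genotype. Erbb2 fell in both as well, with -2.28 in wild type.

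Genes of cell division were followed because the family is named for restraining it. Of 13 measured G1 cyclins, kinases and inhibitors, 3 rose and 0 fell in KO Ad (median 0.04): Ccnd2 by 1.21 ± 0.09 (adjusted p = 4.0e-05, limma), Ccnd1 by 1.17 ± 0.03 (adjusted p = 2.5e-07, limma) and Ccne1 by 1.07 ± 0.10 (adjusted p = 1.1e-04, limma). The calls of Ccnd2 and Ccne1 were lost with normexp correction, and that of Ccne1 also without the second KO Ad or the second WT Ad array. Of 9 measured proliferation markers, 3 rose and 0 fell: Mki67 by 2.09 ± 0.11, with 1 of 2 WT Ad arrays well above background, Ccna2 by at least 2.45-fold and Cdk1 by at least 1.18-fold. All 3 calls were lost with normexp correction. The count of called markers was 0 there, 6 without the second KO Ad array, and 6 to 7 under 4 other scalings, the value table among them, where Top2a, Ccnb1 and Mcm5 joined. Top2a and Ccnb1 were dim on all 4 adult arrays and Mcm5 in WT Ad. With Top2a and Ccnb1 left out and dim genes at their bounds, the list median was 0.85, against 0.94 as fitted. In fetal pools none of the 13 G1 genes was called by limma (median -0.01, 9 with an unadjusted p under 0.05), nor any of the 9 proliferation markers (median 0.10, 3 with an unadjusted p under 0.05). These adult values stand beside the higher macrophage and stellate cell markers given above, whose part in them was not tested.

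All 9 proliferation markers fell in adult liver in both genotypes, with fitted medians of -7.04 in knockout and -7.95 in wild type. Top2a and Ccnb1 were dim in both adult groups, and Mcm5, Ccna2 and Cdk1 in WT Ad, so their values are bounds, and with each at its bound the medians were -6.57 in knockout and -6.77 in wild type. Birc5 differed by -6.00 in KO Ad and -6.77 in WT Ad, and Mcm2 by -5.96 in KO Ad and -6.20 in WT Ad. Of the 13 G1 genes, 1 rose and 10 fell with age in each genotype (medians -2.54 in knockout and -2.52 in wild type). The widest were Cdkn1c, at -6.61 in KO Ad and -5.69 in WT Ad, and Ccne1, at -5.11 in KO Ad and -6.19 in WT Ad. The gene that rose was Cdkn1a, which encodes the cyclin kinase inhibitor p21, by 2.06 ± 0.04 in knockout and 2.47 ± 0.04 in wild type.

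Of 6 genes that regulate Btg2 or are induced with it, 0 rose and 2 fell in KO Ad (median -0.15). Egr1, an immediate-early transcription factor, fell by 1.66 (SE 0.11, adjusted p = 2.7e-05, limma), a call lost with normexp correction, and Jun fell by 1.40 (SE 0.03, adjusted p = 3.7e-07, limma). None of the 6 was called by limma in fetal pools (median -0.05, 1 with an unadjusted p under 0.05). Trp53, which encodes p53, differed by -1.63 with age in both genotypes, and Myc by -2.75 in KO Ad and -2.93 in WT Ad. The fall of Fos, dim in both adult groups, gave at least 1.05-fold in KO Ad and no usable bound in WT Ad. The calls of Trp53 and Fos were lost with normexp correction. Fos changed sign with it, to 0.05 in knockout (adjusted p = 0.53, limma) and 0.35 in wild type (adjusted p = 7.5e-04, limma). Jun was higher by 1.20 ± 0.03 in WT Ad than in WT Fetal, a call lost under 5 other settings, and Egr1 fell by 1.65 in KO Ad against KO Fetal, a call lost with normexp correction.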

How the data were processed

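RNA from 4 liver samples was labelled (200 ng, Cy3) and hybridised to 8 one-colour arrays, 2 per sample. Per the file headers, the deposited scanner files hold signal intensities and flags per spot from Agilent Feature Extraction 10.7.3.1. The series' deposited value table holds linear intensities with a median of 18.1 in every column, and its normalization is not stated in the labels. It was used as an alternative only.

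The processed signal was taken as log2 minus the 75th percentile of each array. Control spots were left out, 92 to 188 outlier spots per array were set to missing, and replicate spots were averaged. Names came from accessions matched to the RefSeq table of GRCm38.p6 (26762 of 55681 matched). The filter kept probes that cleared background on both duplicates in some group (28819, of 14582 named genes). A gene of a list was represented by its brightest tested probe. Tests used limma 3.58.1 in R 4.3.3 (lmFit, then eBayes with an intensity trend, 8 arrays in 4 groups) and were checked on simulated data. The members and all lists were chosen with earlier results of these data known. From each list up to 4 called genes measured in both groups and 2 with bounds are named per comparison, or up to 2 genes where none was called. Cdkn1a, Lsm14a, Cpeb2, Mki67, Erbb2, Nanos1, Samd4, Dcp2, Top2a, Ccnb1 and Mcm5 in some comparisons, and Prmt1 and E2f1 between genotypes, fall outside this rule and were chosen after their values were seen. Some genes counted in the lists are not reported by name here. Array number, the precision limit here, was 2 per group. Alternatives were other scalings, normexp background correction with an offset of 50, filters, the slide row as a block and leaving out each array. The offset narrows the log2 differences of dim probes, so calls lost with normexp correction are to be read with it. Some of these differences changed sign as well: those of Cnot3, Dcp2 and Fos with age in wild type, and those of Fos and Samd4 in knockout.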

Additional observations from a re-analysis of the deposited data

Results flagged for a closer look

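For 21 genes among the members, the lists related to their function and the markers named above, the difference between knockout and wild type was tested to differ between adult liver and fetal pools (interaction term, limma, adjusted p under 0.05 and at least 2-fold). Among the members these were Btg2, at 3.71, and Tob2, at -1.07, whose adult and fetal differences were -0.82 and 0.25. Among genes of cell division the terms were 1.72 for Ccna2, 1.40 for Ccnd1, 1.64 for Ccnd2, -1.13 for Ccnd3, 1.08 for Ccne1, 2.18 for Cdk1, 1.06 for Cdk2, 1.91 for Mki67 and 1.09 for Top2a. For the decapping enhancer Edc3 it was 1.26. Other terms were -1.72 for Egr1, -1.42 for Jun and -2.10 for Esr1. Among markers of other cells they were 3.68 for Timd4, -4.20 for Myh6, -1.94 for Myl7, 2.73 for Vil1, -1.52 for Fabp2 and 2.77 for Reg1. Several terms rest on dim groups and give no exact size. Neither array was well above background for Btg2 in both knockout groups, for Ccna2, Cdk1, Timd4 and Vil1 in WT Ad, for Top2a and Myl7 in both adult groups, for Myh6 in KO Ad, for Esr1 in both fetal groups, and for Reg1 in all groups but KO Ad. Mki67 and Myh6 had 1 such array of 2 in WT Ad. Reg1 passed the filter on dim probes only through KO Ad, the group where it was high, so its term is no independent evidence. The calls of Ccna2, Ccnd2, Ccnd3, Ccne1, Cdk1, Cdk2, Edc3, Mki67, Top2a, Reg1 and Vil1 were lost with normexp correction. Those of Ccnd3 and Tob2 were also lost under 3 other scalings and with the value table, that of Ccne1 without the second KO Ad or the second WT Ad array, that of Cdk2 without the second WT Ad array and that of Top2a without the first KO Ad array. Tob2 was lost with normexp correction too. For Ccnd1 the difference was 1.17 in adults and -0.23 in fetal pools, and for Jun it was -1.40 in adults and 0.03 in fetal pools. Each term compares 4 RNA samples measured on 2 arrays each, so the spread between animals is not in it.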

How the results depend on the processing

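Results were recomputed under up to 19 alternatives. Btg2 kept its calls in each that could be run (-5.11 to -1.78 in adult knockout and -8.60 to -4.62 in fetal knockout, the smallest with normexp correction), and Tob1, Tob2 and Btg3 stayed under 2-fold in KO Ad minus WT Ad (-0.75 to -0.52, -0.83 to -0.63 and 0.51 to 0.78). Members called were 1 in each knockout comparison, 4 to 5 in WT Ad minus WT Fetal and 2 to 4 in KO Ad minus KO Fetal. In the interaction 1 in place of 2 was called under quantile normalization (Tob2 -0.90), array medians (-0.92), the percentile of detected probes (-0.90), normexp correction (-0.86) and the deposited value table (-0.91). The cause was not tested. The replicate block (slide row) changed no call of a member. With it, 1996 probes were called between KO Ad and WT Ad and 428 between KO Fetal and WT Fetal, against 1991 and 461 as reported. The arrays share row numbers only as technical duplicates. Probes called with normexp were 550 in adult knockout, 92 in fetal knockout, 9371 in KO Ad minus KO Fetal and 839 in the interaction. With no filter there were 31755 in WT Ad minus WT Fetal and 28161 in KO Ad minus KO Fetal, since more probes were tested. With only probes above background on all arrays there were 839, 48, 9349, 8759 and 1363 in adult knockout, fetal knockout, wild-type age, knockout age and interaction. With 1 probe per gene there were 1090, 282, 8018, 7777 and 1423. Both settings test fewer probes. A 2-fold rule with no test gave 835 in fetal knockout, and leaving out 1 array gave 252 to 493 there. The lowest came without the second KO Fetal array. Differences near 0 turned sign, all under 2-fold and all but 1 with an adjusted p over the threshold. For the brighter Btg1 probe, KO Ad minus WT Ad was 0.06 with quantile normalization and the value table, 0.10 with array medians and 0.04 with the detected percentile. Its interaction was 0.19 with quantile normalization and the value table, 0.13, 0.15 and 0.14 with array medians, the detected percentile and normexp, and -0.10 to 0.06 without 1 array. Btg3 in fetal knockout was -0.04 with quantile normalization, -0.03 with the value table and -0.01 with normexp and the detected percentile. Tob1 there was -0.03 to 0.17 without 1 array. The dimmer Btg1 probe ran from -0.56 to 0.71 in WT Ad minus WT Fetal over all settings that could be run. It turned there (-0.46, -0.56, -0.37 and -0.51 with quantile normalization, array medians, detected percentile and value table, and -0.12 to 0.25 without 1 array). It turned in KO Ad minus KO Fetal (-0.09, -0.26, -0.04 and -0.12, and -0.11 to 0.55). With normexp it was -0.14 in adult knockout, 0.12 in fetal knockout and -0.27 in the interaction, where the adjusted p was 0.044. Without 1 array these were -0.23 to 0.43, -0.19 to 0.09 and -0.18 to 0.48. Only 2 arrays a sample and 1 sample a group limit every value. Dim probes give bounds only.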
